A study of Saccharomyces cerevisiae BY4741 with 6 samples.

Results

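The genes described here are 40 genes of inositol and phospholipid metabolism of *Saccharomyces cerevisiae*, taken by name from the 5449 genes measured on Affymetrix Yeast Genome 2.0 arrays. They cover the uptake and synthesis of inositol, the routes to the major phospholipids, the transcription factors that control them, the branch to storage lipid, cardiolipin synthesis and remodelling, the acylation of glycerol 3-phosphate and the phospholipases. All 40 have a single probe set on the array, and all were measured. The arrays come from the haploid strain BY4741 (*MATa his3Δ1 leu2Δ0 met15Δ0 ura3Δ0*), grown in YPD at 30 °C. Of the 6 cultures, 3 were left untreated and 3 received neomycin sulfate at 10 mg/mL for 4 h, and each was put on 1 array. Both groups share the strain and its deletions, so the antibiotic is the only labelled difference. Values are GCRMA signals on the log2 scale, on which a difference of 1 is a doubling, and a log2 fold change is the neomycin mean minus the untreated mean.

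Inositol enters phosphatidylinositol, the lipid from which phosphatidylinositol-4,5-bisphosphate is made, and neomycin is an aminoglycoside that binds this and other anionic phospholipids. Yeast takes inositol up through permeases or makes it from glucose 6-phosphate by way of Ino1. Many genes of the pathway carry a promoter element called UASINO, to which the activators Ino2 and Ino4 bind as a pair. When phosphatidate is abundant in the membrane of the endoplasmic reticulum, the repressor Opi1 is held there and the genes are transcribed. When inositol is supplied, phosphatidate is used up for phosphatidylinositol, Opi1 enters the nucleus and the genes are repressed, *INO1* most strongly of all. The comparison of treated with untreated cells asks how the transcripts of lipid supply stood in cells exposed to neomycin.

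In cells treated with neomycin, the transcript of *INO1* had 2.21 times its untreated signal (ratio of the mean linear signals, n = 3 arrays per group) and that of *CLD1*, a phospholipase that removes an acyl chain from cardiolipin, 1.89 times. Next came *OPI3*, of phosphatidylcholine synthesis, with a ratio of 1.47, and *GPT2*, a glycerol-3-phosphate acyltransferase, with 1.43. At the other end stood *TAZ1*, which puts acyl chains back onto cardiolipin, with 0.715, and *PLB2*, a phospholipase B, with 0.721. *INO1* and *CLD1* had the lowest mean signals of the 40 members over all arrays, at percentiles 10.1 and 10.3 of all genes. In limma's test, adjusted by Benjamini-Hochberg over all 5449 genes, 0 of the 40 members were higher and 0 lower at an adjusted p under 0.05, where 0.422% of all genes were higher and 0.0918% lower. The smallest adjusted p of a member was 0.0942, that of *CLD1*, and *INO1* had 0.140. With ratio criteria of at least 1.7 or at most 0.6 and a Cyber-T p of at most 0.05, the kind used in the study, *INO1* and *CLD1* counted as induced, 2 of 40 members (5.0%) against 1.45% of all genes, and 0 members counted as repressed, against 0.367% of all genes.

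Without adjustment, 5 members (12.5%) were higher at a p under 0.05, *INO1*, *CLD1*, *OPI3*, *GPT2* and *EPT1*, and 4 (10.0%) were lower, *TAZ1*, *SLC1*, *PLB2* and *INM1*. Over all genes these shares were 5.05% and 8.33%, so that the lower share lies near the background. In 6 members (15.0%) each neomycin array stood above each untreated array, against 5.58% of all genes, and in 2 members (5.0%) each stood below, against 12.8% of all genes. The members above depend on the scaling: they numbered 10 after a further quantile normalisation, where all genes gave 8.5%, and 9 once the array medians had been set equal, where all genes gave 8.75%. They depend on the arrays as well, since fewer arrays separate more easily: without neomycin replicate 1, 16 members stood above and 6 below (all genes 14.2% and 16.9%), and without neomycin replicate 2, 8 and 7 (all genes 7.85% and 27.5%). With any other array left out, 6 or 7 members stood above and 2 to 4 below, the 4 without untreated replicate 2. Without untreated replicates 1, 2 and 3, all genes gave 7.34%, 11.2% and 7.45% above and 17.6%, 21.5% and 15.8% below. Without neomycin replicate 3 they gave 7.29% above and 17.4% below. Each separated member had a 2-sided p = 0.1 in the exact permutation test, which is as low as groups of 3 can reach.

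**Figure D1:**
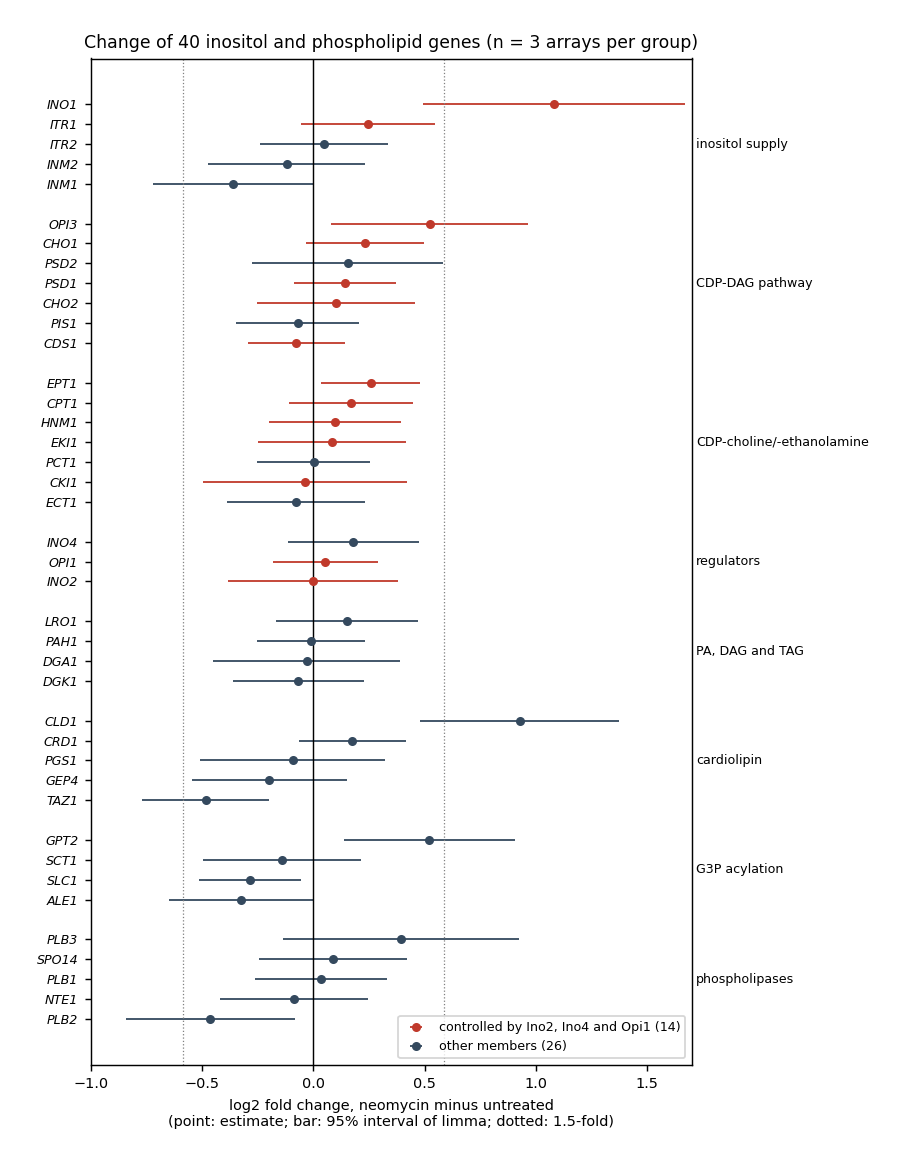
Log2 fold change (horizontal axis, neomycin minus untreated, 3 arrays per group) of the 40 members, sorted by role, with limma's unadjusted 95% intervals as bars and dotted lines at a 1.5-fold change. *INO1* at 1.08 and *CLD1* at 0.93 stand apart on the right, and most of the other intervals stay between the dotted lines.

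The arrays also set limits to what could have been missed. Of the 31 members with an unadjusted p of at least 0.05, whose log2 fold changes ran from −0.32 to 0.39 and adjusted p-values from 0.376 to 0.997, 29 had a 95% interval that lay within a 1.5-fold change in either direction. The exceptions were *ALE1* (−0.65 to 0.00) and *PLB3* (−0.14 to 0.93). The intervals are unadjusted. Over all 40 members 77.5% had an interval within a 1.5-fold change, near the 74.4% of all genes, so this precision is not particular to the members. All 40 members had means above 4.68 in both groups, the highest mean among *LEU2*, *MET17* and *URA3*, which are deleted in this strain, although probe sets differ in how they bind and the mark is only a rough one. Neomycin replicate 1 gave smaller differences than replicates 2 and 3. For each treated array in turn, the 100 genes that differed most in the remaining pair of treated arrays were taken, and the median gene showed 0.494 of the pair's difference on replicate 1, 0.968 on replicate 2 and 1.13 on replicate 3. Array medians ran from 8.84 to 8.93 over all probe sets. Transcripts that only α cells should make were not all absent from these MATa cultures, *SAG1*, *MF(ALPHA)2* and *STE3* having untreated means of 8.29, 6.20 and 5.82, while *MF(ALPHA)1*, at 3.71, lay under the mark. All 4 were lower with neomycin, with log2 fold changes of −0.49, −0.71, −0.54 and −0.47 in that order and unadjusted limma p-values under 0.05, but 0 of 4 passed the adjusted test, and 2 of 4, *SAG1* and *MF(ALPHA)1*, were separated downwards. Whether this has a part in the values of the members was not tested. In bulk RNA, fewer cells with a transcript and less transcript per cell cannot be told apart.

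**Figure D2:**
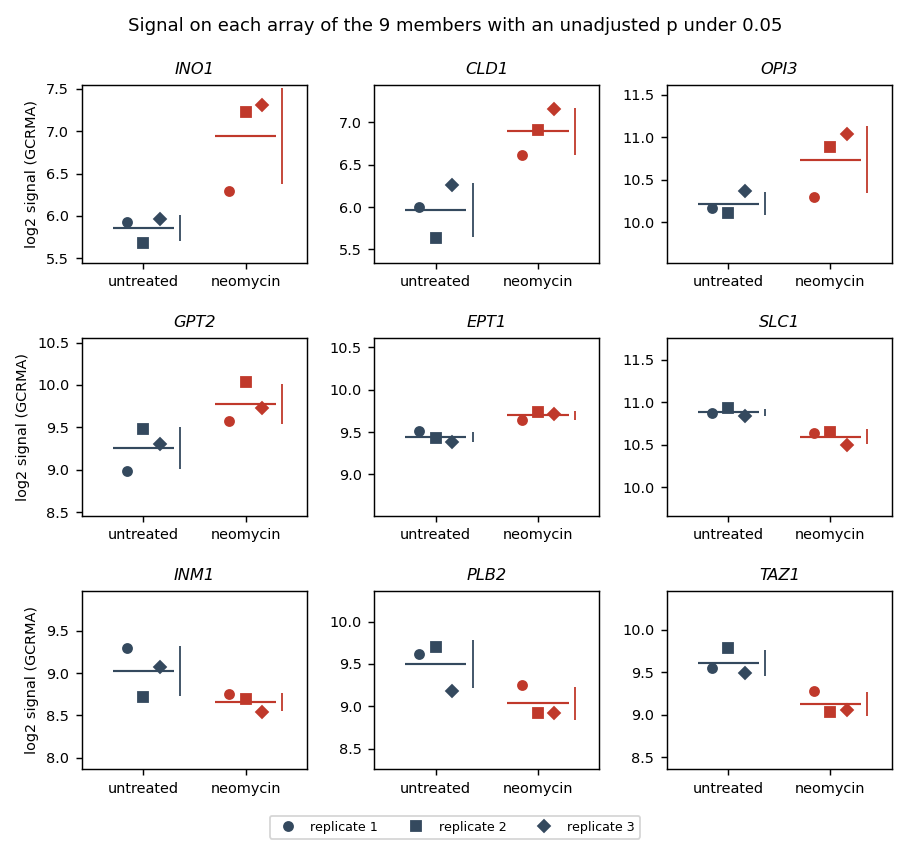
Log2 GCRMA signal (vertical axis, the same height of scale in each panel) of the 9 members with an unadjusted p under 0.05, on 3 untreated and 3 neomycin arrays. Symbols mark the replicate numbers, horizontal lines the group means and vertical bars 1 SD to either side. Neomycin replicate 1 lies nearer to the untreated mean than replicates 2 and 3 in every panel except that of *SLC1*.

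The supply of inositol was led by *INO1*, the inositol-3-phosphate synthase that commits glucose 6-phosphate to inositol. Its log2 signal was 5.93, 5.69 and 5.97 in untreated replicates 1, 2 and 3 and 6.29, 7.23 and 7.31 in neomycin replicates 1, 2 and 3. The groups did not overlap, and the treated cultures fell into a modest value and a pair of high ones. This gave means of 5.86 ± 0.153 (SD, n = 3) and 6.94 ± 0.568, a log2 fold change of 1.08 (SE 0.26, 95% interval 0.49 to 1.67) and an adjusted p of 0.140 from limma, and placed *INO1* at rank 30 of 5449 from the top. Without neomycin replicate 1 the value was 1.41 with an adjusted p of 0.00235 from limma. Leaving out any other single array gave 0.90 to 1.13 with adjusted p-values from 0.246 to 0.389. The whole test moved alike: without neomycin replicate 1 it called 119 of all 5449 genes higher and 23 lower. Without any one of the other arrays it called at most 1 gene in each direction.

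The steps around *INO1* gave smaller values. *INM1*, an inositol monophosphatase that frees inositol from the product of Ino1, read 9.30, 8.71 and 9.07 without and 8.75, 8.69 and 8.54 with neomycin. Untreated replicate 2 lay among the treated arrays, and the log2 fold change was −0.36 (SE 0.16, adjusted p = 0.373 from limma). *INM2*, the other monophosphatase, had −0.12 (95% interval −0.47 to 0.23). Of the permeases that import inositol, *ITR1*, the major one, had a log2 fold change of 0.24 (95% interval −0.05 to 0.54), its treated replicates 2 and 3 lying above and replicate 1 within the untreated range, and *ITR2* had 0.05 (95% interval −0.24 to 0.33).

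The CDP-diacylglycerol pathway leads from phosphatidate to phosphatidylinositol on one side and to phosphatidylserine, phosphatidylethanolamine and phosphatidylcholine on the other. Its last enzyme, the methyltransferase *OPI3*, which completes phosphatidylcholine, had log2 signals of 10.17, 10.11 and 10.37 in untreated and 10.29, 10.88 and 11.04 in neomycin cultures. Neomycin replicate 1 lay within the untreated range, and replicates 2 and 3 lay above it. The log2 fold change was 0.52 (SE 0.19, 95% interval 0.08 to 0.96, adjusted p = 0.318 from limma). Without neomycin replicate 1 it was 0.74 with an adjusted p of 0.0290, and with any other array left out the adjusted p ran from 0.376 to 0.637. As given for *INO1*, hardly any gene of the array passed in the latter settings.

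*CHO1*, the phosphatidylserine synthase, read 10.62, 10.79 and 10.79 without and 10.80, 11.02 and 11.06 with neomycin, so that the groups were barely separated, at a log2 fold change of 0.23 (SE 0.11, adjusted p = 0.430 from limma). *CHO2*, which adds the first methyl group to phosphatidylethanolamine, had 0.10 (95% interval −0.25 to 0.45), with neomycin replicate 1 as the lowest and replicates 2 and 3 as the highest of the 6 arrays. The phosphatidylserine decarboxylases, *PSD1* of the mitochondria and *PSD2* of the endomembranes, had 0.14 and 0.15. *CDS1*, the CDP-diacylglycerol synthase at the head of the pathway, had −0.08 (95% interval −0.30 to 0.14) and *PIS1*, which joins inositol to CDP-diacylglycerol and so makes phosphatidylinositol itself, −0.07 (95% interval −0.35 to 0.21). In this pathway the median log2 fold change was 0.14, with 5 of 7 genes above 0 and 0 past the adjusted test.

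The CDP-choline and CDP-ethanolamine pathways, known as the Kennedy pathway, build phosphatidylcholine and phosphatidylethanolamine from the free bases. *EPT1*, which transfers phosphoethanolamine to diacylglycerol in the last step, read 9.51, 9.42 and 9.39 in untreated and 9.64, 9.74 and 9.71 in neomycin cultures. Both groups were tight and did not overlap, and the log2 fold change was 0.26 (SE 0.10, 95% interval 0.04 to 0.48, adjusted p = 0.326 from limma). Its relative *CPT1*, which does the same with phosphocholine, had 0.17, the choline permease *HNM1* 0.10, the ethanolamine kinase *EKI1* 0.08 and the choline kinase *CKI1* −0.04. *PCT1* and *ECT1*, which form CDP-choline and CDP-ethanolamine in the middle step, had 0.00 and −0.08. All 7 intervals lay within a 1.5-fold change.

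The transcription factors of the UASINO genes showed no difference of that size. *INO2*, one of the activators, read 6.98, 7.17 and 6.86 without and 7.27, 6.67 and 7.06 with neomycin, so that the treated cultures held both the highest and the lowest signal. Its log2 fold change was 0.00 (SE 0.17, 95% interval −0.39 to 0.38), and its sign depended on the processing. *INO4*, the partner of *INO2*, read 7.10, 6.98 and 7.17 without and 7.04, 7.30 and 7.44 with neomycin. Here replicate 1 stood within the untreated range and replicates 2 and 3 above it, for a log2 fold change of 0.18 (SE 0.13, 95% interval −0.12 to 0.47, adjusted p = 0.612 from limma). *OPI1*, the repressor, had signals of 9.29, 9.30 and 9.24 without and 9.21, 9.35 and 9.43 with neomycin, and a log2 fold change of 0.05 (SE 0.10, 95% interval −0.18 to 0.29). These are transcript levels and say nothing of where the Opi1 protein was in the cell.

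Between phosphatidate and storage lipid stand 4 further members. *PAH1*, the phosphatidate phosphatase that turns phosphatidate into diacylglycerol, had a log2 fold change of −0.01 (95% interval −0.25 to 0.23), its untreated arrays differing by an SD of only 0.00751. *DGK1*, the diacylglycerol kinase that runs the opposite way, had −0.07. *DGA1* and *LRO1*, which make triacylglycerol from acyl-CoA and from phospholipid respectively, had −0.03 and 0.15. For each of the 4 the groups overlapped and the interval lay within a 1.5-fold change.

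Cardiolipin, the phospholipid of the mitochondrial inner membrane, gave the members with the smallest p-values in each direction. *CLD1*, the cardiolipin-specific phospholipase that makes monolysocardiolipin, read 6.01, 5.63 and 6.26 in untreated and 6.61, 6.91 and 7.16 in neomycin cultures. All treated arrays stood above all untreated ones, neomycin replicate 1 again being the lowest of them. Means were 5.97 ± 0.318 (SD, n = 3) and 6.89 ± 0.275, the log2 fold change was 0.93 (SE 0.19, 95% interval 0.48 to 1.37, adjusted p = 0.0942 from limma) and its rank from the top was 47 of 5449. It passed without neomycin replicate 1 (1.07, adjusted p = 0.0310 from limma). With any other array left out the adjusted p was 0.182 to 0.331, in settings where hardly any gene passed.

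*TAZ1*, the yeast tafazzin, acts on the product of Cld1 and reacylates it. Its signals of 9.55, 9.78 and 9.50 in untreated and 9.28, 9.03 and 9.06 in neomycin cultures did not overlap. This made a log2 fold change of −0.48 (SE 0.12, 95% interval −0.77 to −0.20, adjusted p = 0.177 from limma) and rank 89 of 5449 from the bottom. The enzyme that removes acyl chains and the one that restores them thus had differences of opposite sign, each carried by 3 of 3 treated arrays. The earlier steps of cardiolipin synthesis had smaller values. *CRD1*, the cardiolipin synthase, read 7.62, 7.51 and 7.46 without and 7.66, 7.83 and 7.64 with neomycin, just separated, with a log2 fold change of 0.18 (SE 0.11, adjusted p = 0.526 from limma). *PGS1* and *GEP4*, which make phosphatidylglycerol phosphate and remove its phosphate, had −0.09 and −0.20.

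The acylation of glycerol 3-phosphate, which starts the synthesis of all glycerolipids, held members on either side. *GPT2*, one of the acyltransferases of the first step, read 8.98, 9.48 and 9.31 without and 9.57, 10.03 and 9.73 with neomycin. Its groups were separated by a narrow gap, and the log2 fold change was 0.52 (SE 0.17, 95% interval 0.14 to 0.91, adjusted p = 0.272 from limma). *SCT1*, the other acyltransferase of that step, had −0.14 (95% interval −0.50 to 0.21). *SLC1*, which adds the second acyl chain to make phosphatidate, read 10.87, 10.93 and 10.84 without and 10.64, 10.65 and 10.50 with neomycin. Every treated array was lower, for a log2 fold change of −0.29 (SE 0.10, 95% interval −0.51 to −0.06, adjusted p = 0.296 from limma). *ALE1*, which acylates lysophosphatidate and other lysophospholipids, had −0.32 (SE 0.14, adjusted p = 0.376 from limma). The members *SLC1* and *ALE1*, both of the second acylation, thus lay below 0.

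Among the phospholipases *PLB2*, which codes for a phospholipase B, read 9.61, 9.70 and 9.18 in untreated and 9.26, 8.92 and 8.92 in neomycin cultures. Untreated replicate 3 fell below neomycin replicate 1, so that the groups overlapped. The log2 fold change was −0.46 (SE 0.17, 95% interval −0.84 to −0.08, adjusted p = 0.306 from limma). Its relatives *PLB1* and *PLB3* had 0.04 and 0.39, the latter with an untreated SD of 0.484 because untreated replicate 1 read 8.82 against 9.73 and 9.56. *NTE1*, which deacylates phosphatidylcholine inside the cell, had −0.09, and *SPO14*, the phospholipase D that releases phosphatidate, 0.09.

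**Figure D3:**
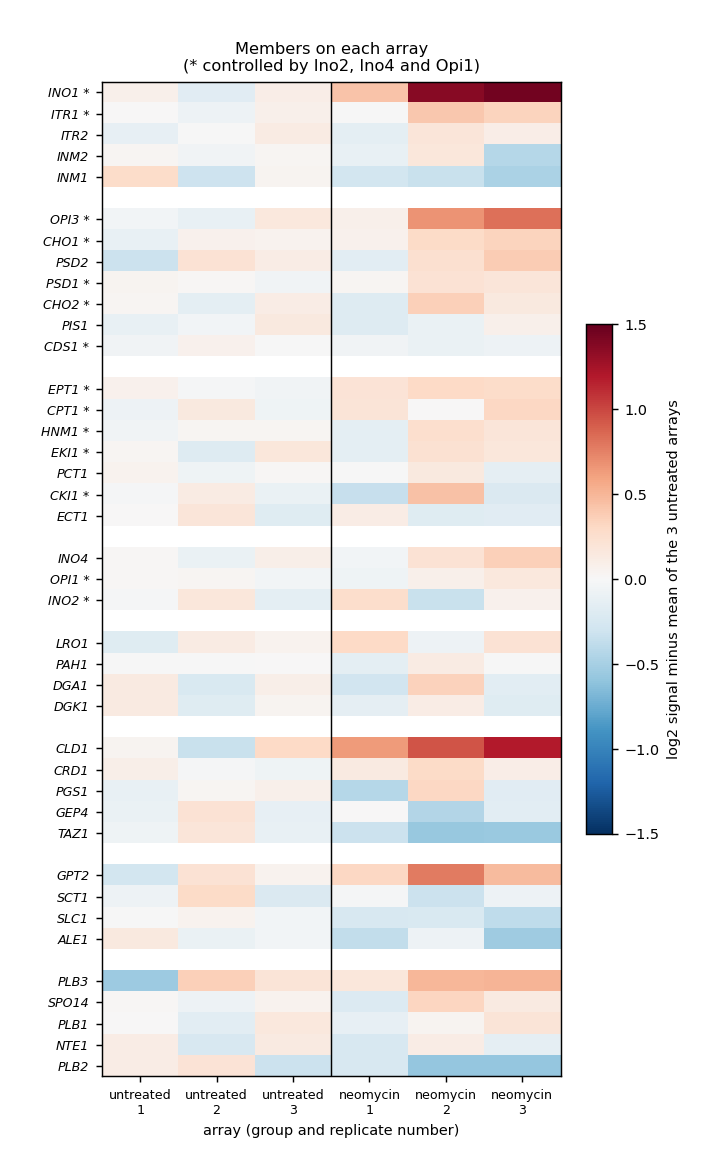
Log2 signal of the 40 members (rows, grouped by role) on the 6 arrays (columns), each as the difference from the mean of the 3 untreated arrays, with stars for the genes of the Ino2, Ino4 and Opi1 list. The darkest cells are those of *INO1* (1.36 and 1.45) and *CLD1* (0.94 and 1.19) on neomycin replicates 2 and 3.

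Of the 40 members, 14 stand in a list of genes controlled by Ino2, Ino4 and Opi1, namely *INO1*, *ITR1*, *CDS1*, *CHO1*, *PSD1*, *CHO2*, *OPI3*, *HNM1*, *CKI1*, *EKI1*, *CPT1*, *EPT1*, *INO2* and *OPI1*. Their median log2 fold change was 0.12, with 11 of 14 (78.6%) above 0, beside a median of −0.05 and 11 of 26 (42.3%) above 0 in the other members and a median of −0.05 and 37.9% above 0 over all genes. Without *INO1* the median of the list was 0.10, with 10 of 13 genes above 0. No p is attached to this difference, since the members were chosen with results of these arrays known and genes of a regulon are not independent. All 14 had adjusted p-values of 0.140 or more from limma.

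On the single arrays, the list's median relative to the untreated mean was 0.01, 0.27 and 0.18 on neomycin replicates 1, 2 and 3, that of the other members −0.14, 0.12 and −0.10 and that of all genes −0.11, 0.03 and −0.05. The list thus stood above the other members on each treated array, by 0.15, 0.16 and 0.29, while on the untreated arrays the difference ran from −0.04 to 0.03. Because each gene is set against its own untreated mean, the untreated medians are held close together. Their range is therefore no measure of the spread to be expected on the treated arrays. On neomycin replicate 1, 7 of the 14 genes were above their untreated mean, against 12 of 14 on each of replicates 2 and 3. Of all 5449 genes, 1587, 2986 and 2245 were above theirs on neomycin replicates 1, 2 and 3, so the background was lowest on replicate 1 too. The part that the weaker response of replicate 1 has in these counts was not tested.

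**Figure D4:**
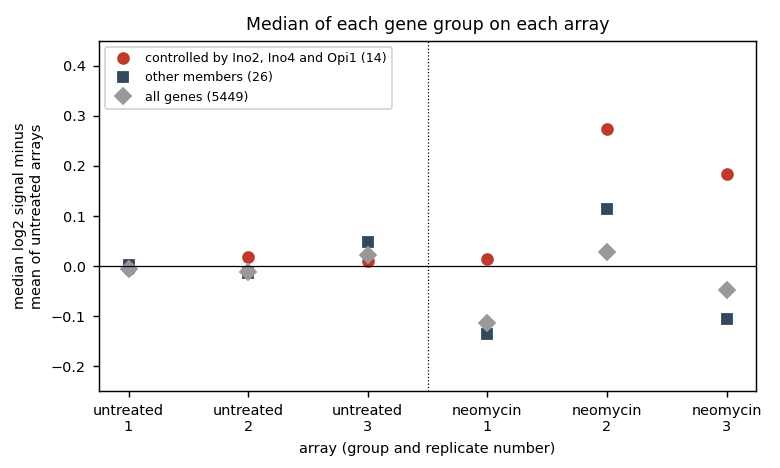
Median over the genes of each group (vertical axis, log2 signal minus the mean of the untreated arrays) on each of the 6 arrays, for the 14 genes controlled by Ino2, Ino4 and Opi1, the 26 other members and all 5449 genes. The 14 genes lie above the other members on the 3 neomycin arrays, by 0.15 to 0.29, and within 0.04 of them on the untreated arrays. On the untreated arrays the subtraction of each gene's own untreated mean holds the groups close together.

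Related enzymes were also compared in their response, as the difference between their log2 signals within each array, over 10 pairs. For *SCT1* and *GPT2*, which share the first acylation, the signal of *SCT1* minus that of *GPT2*, relative to the untreated mean, was −0.34, −1.10 and −0.55 on the neomycin arrays and 0.20, 0.07 and −0.27 on the untreated ones. This is a difference of −0.66 between the changes of both genes, with p = 0.1 in the 2-sided exact permutation test, the smallest possible, and 0.5 after adjustment over the 10 pairs. *ITR1* minus *ITR2* gave 0.15, 0.22 and 0.23 against 0.12, −0.08 and −0.05, a difference of 0.20 with the same p-values. *PLB2* minus *PLB3* gave the largest value, −0.86, but the groups overlapped and the exact p was 0.2. For *CPT1* and *EPT1* the difference was −0.09 (exact p = 0.7), for *PSD1* and *PSD2* −0.01 (exact p = 0.9), for *CKI1* and *EKI1* −0.12 (exact p = 0.6), for *PCT1* and *ECT1* 0.08 (exact p = 0.8) and for *INM1* and *INM2* −0.24 (exact p = 0.4).

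Outside the 40 members, 41 genes of neighbouring steps gave a median log2 fold change of 0.00, and 0 passed the adjusted test, the smallest adjusted p being 0.182. The fatty acid synthesis genes *ACC1*, *FAS1* and *FAS2*, which also carry a UASINO element, had 0.05, 0.00 and 0.05. In 2 of the 41 genes (4.88%) each neomycin array stood above each untreated array and in 5 (12.2%) below, shares near those of all genes. *OLE1*, the fatty acid desaturase, read 11.31, 11.35 and 11.13 without and 10.90, 10.81 and 10.90 with neomycin, a log2 fold change of −0.40 (SE 0.10, adjusted p = 0.182 from limma). *MGA2*, a membrane-bound activator of *OLE1*, read 9.46, 9.54 and 9.37 without and 9.02, 9.21 and 9.04 with neomycin (−0.36, SE 0.10, adjusted p = 0.218). Both were thus lower on every treated array, while *SPT23*, the other such activator, had −0.02. *UPS1* and *MDM35*, whose products carry phosphatidate into the mitochondrion for cardiolipin synthesis, were separated downwards with −0.15 and −0.26. Downwards too went *SCS3*, with −0.20, while its relative *YFT2*, with 0.19, and the acyltransferase gene *ICT1*, with 0.26, were separated upwards. *GUT2*, the mitochondrial glycerol-3-phosphate dehydrogenase, had 0.54 (SE 0.22, adjusted p = 0.363) with overlapping groups.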

How the data were processed

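RNA of 3 untreated and 3 neomycin-treated cultures was hybridised by the authors to 1 Affymetrix Yeast Genome 2.0 array each. The deposited table holds log2 values from 2.22 to 14.31 for 5716 probe sets, made by the authors with GCRMA, which corrects for background, normalises the arrays to each other and sums up the probes of a set. The sources used here do not give its version. Because of this normalisation a value is relative to the other genes of its array. The number of arrays limits the precision.

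The platform annotation named a gene for 5498 probe sets, and the brightest one of each gene was kept, which gave 5449 genes. In R 4.3.3, limma 3.58.1 was run 2-sided on all of them (lmFit, then eBayes) and adjusted by Benjamini-Hochberg. Cyber-T was rebuilt with a window of 101 genes and a confidence of 10, which the paper does not state. A run of limma on simulated data was also made, and its outcome is not reported here. Members, lists and pairs were chosen with earlier results of these data known, the UASINO list from general knowledge. Every member is named; the values of all 6 arrays are given for *INO1*, the 3 regulators and each member with an unadjusted p under 0.05 or separated groups, and neighbouring genes were named by the same rule, together with *ACC1*, *FAS1*, *FAS2* and *SPT23*, which were named after their values were seen. The alternatives were the replicate block, scaling again, a filter on dim genes, other uses of probe sets, each array left out, other priors and other thresholds. The titles number the replicates alike in both groups, and the main test did not use these numbers as pairs.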

Additional observations from a re-analysis of the deposited data

How the results depend on the processing

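The count of members higher in limma's adjusted test, 0 with all arrays, was 2 after quantile normalisation again (*INO1*, adjusted p = 0.0482, and *CLD1*, 0.0473), 1 at an adjusted p under 0.1 (*CLD1*) and 2 by the ratio criteria. With each array left out in turn it ran from 0 to 3, the 3 being *INO1*, *CLD1* and *OPI3* without neomycin replicate 1. The count of members lower was 0 in each of these. Of all 5449 genes, 23 were higher with all arrays, 50 after quantile normalisation again and 119 without neomycin replicate 1. With any other single array left out, 0 or 1 of all genes was higher. By the ratio criteria 1.45% of all genes were higher. With the replicate block the log2 fold change of *INO1* is 1.08 by construction, and its adjusted p from limma was 0.207. Under this block limma called 0 genes in place of 23 higher and 5 lower. The numbers were not taken as pairs: the deviations of same-numbered arrays from their group means correlated at 0.00, −0.38 and 0.44 across genes, and only those of replicate 3 correlated best with their own number, while untreated replicate 1 with neomycin replicate 2 and untreated replicate 2 with neomycin replicate 1 each gave 0.40. The medians of all members, of the 14 UASINO genes and of the other 26 moved by less than their spread between replicates in each alternative. For a single array left out this was nearly assured, since dropping 1 of 3 arrays moves their mean by less than their SD. The medians had ranges of −0.02 to 0.11, 0.09 to 0.21 and −0.07 to 0.03, so that only the second kept its sign throughout. The replicate block, the other uses of probe sets and the other priors could not move a member's log2 fold change. The blocks are balanced, each member has a single probe set, and priors act on the variance only. These alternatives therefore say nothing of the stability of medians or signs. *INO2* turned to 0.0331 with arrays centred on their median, and ran from −0.14 to 0.16 with single arrays left out. None of the other 13 members given with their 6 array values turned its sign in the alternatives that could move its value. Apart from *INO4* and *OPI1*, they were picked for an unadjusted p under 0.05 or separated groups, which favours a kept sign. Where the groups were separated, leaving out an array could not turn the sign at all. The kept signs therefore say little of stability. *OLE1* and *MGA2* were not run under any alternative. The filter on dim genes removed *INO1* and *CLD1*, which then have no value. The count of UASINO motifs in promoters, planned as a description, was not run, since no promoter table was used here.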
